A study of Mus musculus with 23 samples.

Results

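Ribosome-bound mRNA was compared between germinal vesicle (GV) oocytes of mice labelled Eif4enif1+/- (het) and GV oocytes labelled wild-type (WT). The comparison rests on 4 translatome libraries, 2 het and 2 WT, of the 8 GV libraries and of the 23 libraries of the study. No member was chosen by a measured value: all genes that passed a minimum of counts were tested, 22409 in all. Each translatome library has a transcriptome library of total mRNA from the same oocyte sample, and those 4 libraries are set beside the translatome where they bear on it. All groups are labelled as untreated. The sources used here do not give the strain, the age of the females, the number of oocytes in a library or the structure of the mutant allele. Ribosome-bound mRNA was captured with RiboLace, a bead-based kit that pulls down ribosomes in the act of translation, and was amplified by a full-length single-cell method before sequencing.

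A GV oocyte is a fully grown oocyte arrested in meiotic prophase. Its nucleus has largely stopped transcription, and the mRNA stored during growth is stabilised, masked, translated or degraded in the cytoplasm by a timed programme. Eif4enif1 encodes 4E-T, which binds the cap-binding protein eIF4E and joins it to the helicase DDX6, to LSM14 proteins and to the decay machinery. Through these contacts 4E-T can hold an mRNA out of translation and carry eIF4E into the nucleus. In growing oocytes 4E-T is a component of ribonucleoprotein storage domains that form around mitochondria.

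The translatome libraries held 38.74 M and 17.84 M counts in WT and 50.49 M and 23.17 M counts in het oocytes. Transcriptome libraries held between 3.62 M and 45 M counts, the smallest being het library 1. All 16 oocyte markers examined had counts in every library, among them the zona pellucida genes Zp1, Zp2 and Zp3 and the oocyte-secreted growth factors Gdf9 and Bmp15. Both het libraries lay above both WT libraries in 3 of the 16 and below in 3, against 28.4% and 24.9% of all genes. The summed level of these markers differed more within genotypes than between them. Their summed level, in counts per M counts of the library after TMM scaling (CPM), was 40110 and 90060 in WT and 72650 and 39110 in het translatome libraries. The 100 most abundant genes likewise held 24.26% and 34.74% of WT counts and 32.25% and 26.68% of het counts. WT library 2 and het library 1 therefore stood together for abundant oocyte mRNAs, against WT library 1 and het library 2. Over 9075 genes with at least 10 CPM, the SD of the log2 ratio was 0.406 between the het libraries and 0.529 between the WT libraries. It lay between 0.629 and 0.78 for the 4 pairs of a het with a WT library.

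Eif4enif1 (ENSMUSG00000020454.17) stood at 312 and 270 CPM in the WT and at 150 and 97.1 CPM in the het translatome libraries. Both het libraries were lower than both WT libraries. The log2 change was -1.24 (SE 0.26, edgeR adjusted p = 0.0224), and the adjusted p was 0.2 without het library 2 and 0.0847 without WT library 1. The counted reads were not assigned to alleles.

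In het translatomes 584 genes were higher and 450 were lower than in WT (edgeR quasi-likelihood test, adjusted p under 0.05). These 1034 genes are 4.61% of the genes tested, 2.61% higher and 2.01% lower. Among the genes called higher, 255 changed by more than 4-fold and 317 by 2- to 4-fold. Among those called lower, 99 changed by more than 4-fold and 325 by 2- to 4-fold. A predicted-gene, clone or pseudogene symbol was carried by 177 of the genes called higher and 92 of those called lower. The median of all genes was 0.04 on the log2 scale. Genes called higher took 1.07% and 0.927% of WT counts and 3.17% and 4.32% of het counts. Genes called lower took 4.22% and 2.63% of WT counts and 1.29% and 1.46% of het counts.

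Single libraries had a strong hold on these counts. Without het library 1 only 128 genes were called higher and 26 lower, and without het library 2 the numbers were 163 and 43. They were 303 and 100 without WT library 1 and 653 and 403 without WT library 2. Of the 1034 genes, 85 passed the threshold in every one of these fits, 70 higher and 15 lower. In all 1034 the het and WT libraries did not overlap, so that no fit could turn a direction. A sole library left in a group was assumed to vary like the other groups.

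**Figure D1:**
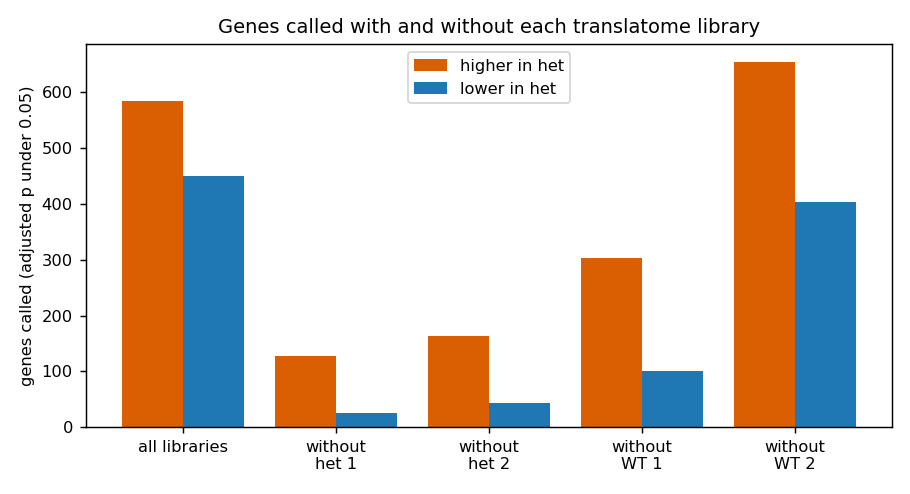
Number of genes called higher (orange) and lower (blue) in the het translatome with all libraries and after leaving out each translatome library. The counts fall from 584 and 450 with all libraries to 128 and 26 without het library 1, while leaving out WT library 2 gives 653 and 403.

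The genes that passed with every library left out included regulators that were low in WT translatomes. Srsf9, an SR protein of pre-mRNA splicing, stood at 5.43 and 5.57 CPM in WT and at 51.3 and 62.5 CPM in het libraries. The WT levels nearly coincided, the het levels differed more, and the groups did not overlap (log2 3.37, SE 0.29, edgeR adjusted p = 2.85e-04). Rgcc, a regulator of the cell cycle, rose from 5.65 and 7.8 CPM to 65.7 and 119 CPM (log2 3.79, adjusted p = 2.85e-04).

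The transcription factor Sox4 rose from 6.03 and 5.82 CPM to 38.7 and 42.6 CPM (log2 2.77). Cdk2ap1, which binds the kinase CDK2, rose from 2.33 and 4.22 CPM to 27.3 and 29.3 CPM (log2 3.14). Clic1, an intracellular chloride channel protein, rose from 1.83 and 2.3 CPM to 25.2 and 20.1 CPM (log2 3.47). In each of these genes the lowest het library exceeded the highest WT library several times over. Wnt4, a secreted Wnt ligand of ovarian somatic cells, had 3 counts in the WT libraries together and 492 in the het libraries. Its ratio of 134 has an interval of 45.6 to 652, which covers counting error only, and its levels in the het libraries were 7.92 and 5.37 CPM.

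Ctbp2, a transcriptional corepressor, was among the 15 genes that stayed lower. It stood at 152 and 114 CPM in WT and at 30.4 and 29.9 CPM in het libraries (log2 -2.14, SE 0.26, edgeR adjusted p = 0.00215). Mtfr2, a promoter of mitochondrial fission, fell from 35.5 and 40.9 CPM to 10.1 and 10.6 CPM (log2 -1.88). Slc6a9, the glycine transporter GLYT1 that oocytes use to control their volume, fell from 203 and 104 CPM to 36.3 and 34.9 CPM (log2 -2.11).

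The mucin Muc4 fell from 23.6 and 18.8 CPM to 4.77 and 3.91 CPM (log2 -2.28). Vwa2, an extracellular matrix protein, fell from 61.1 and 44.3 CPM to 13.9 and 10.3 CPM (log2 -2.12). Rbm12b1, which encodes an RNA-binding protein, changed by -1.94 and Cyp2c29, a cytochrome P450, by -2.76. The vomeronasal receptor genes Vmn1r112 and Vmn1r157 both changed by -2.67. Of 207 vomeronasal type 1 receptor genes in the table, 24 passed the count minimum. Of these, 4 were lower (16.7% against 2.01% of all genes), the others being Vmn1r132 (-2.46) and Vmn1r139 (-2.10). Cyp2c29 and these receptors belong to families of close copies that can share reads, so their counts are uncertain.

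**Figure D2:**
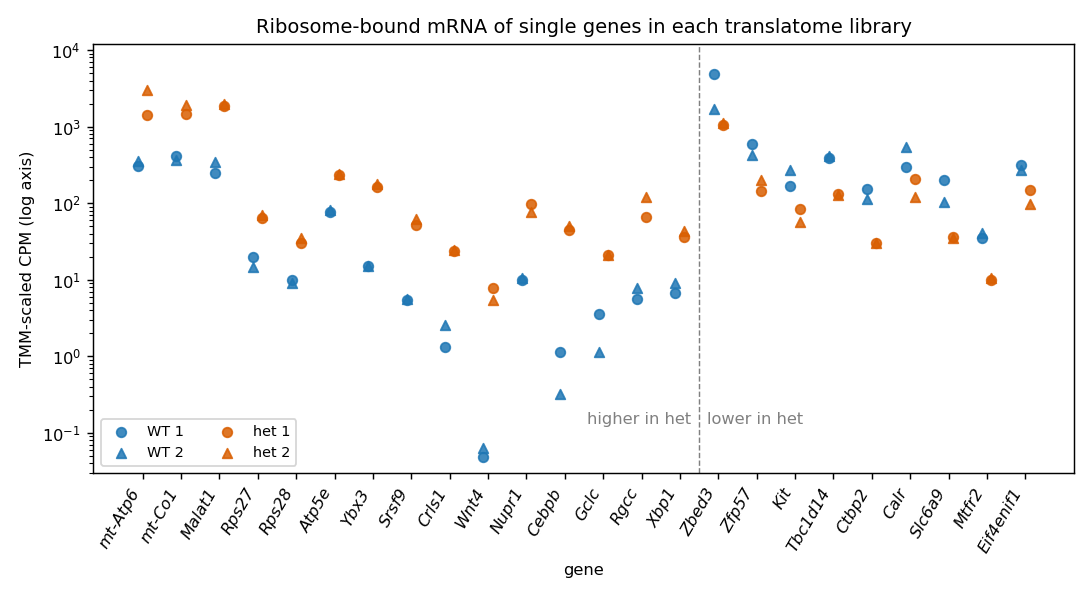
TMM-scaled CPM on a log axis of 24 genes in each of the 4 translatome libraries, with WT in blue, het in orange, circles for library 1 and triangles for library 2. In every gene shown the pair of het points lies wholly above or wholly below the pair of WT points, as in all 1034 called genes, from which these were taken. Ctbp2, for example, has 30.4 and 29.9 CPM in the het libraries and 152 and 114 CPM in WT.

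All 13 protein-coding mitochondrial genes were higher in het translatomes, and their summed level was 1807 and 1584 CPM in WT and 6430 and 11090 CPM in het libraries. The ATP synthase subunit mt-Atp6 stood at 308 and 360 CPM in WT and at 1432 and 2982 CPM in het libraries. The cytochrome c oxidase subunit mt-Co1 stood at 409 and 362 CPM against 1476 and 1915 CPM, and het library 2 was the higher of the pair for all genes named here. The complex III subunit mt-Cytb stood at 302 and 244 CPM in WT and at 969 and 1876 CPM in het libraries.

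The increase was not equal among the respiratory complexes. The 7 complex I subunits had a median log2 change of 1.89, from 1.26 for mt-Nd5 to 2.12 for mt-Nd2. The 6 subunits of complexes III, IV and V had a median of 2.58, from 2.14 for mt-Co1 to 2.72 for mt-Atp6. The ribosomal RNAs of mitochondria also rose, mt-Rnr2 from 209 and 92.8 to 498 and 778 CPM (2.08) and mt-Rnr1 from 70 and 40.1 to 143 and 303 CPM (2.01). Neither these rRNAs nor the 13 mitochondrial mRNAs are read by cytosolic ribosomes. In the transcriptome the median was 1.29 for the mRNAs and 2.18 for the 2 rRNAs. Without het library 2 the translatome median of the 2 rRNAs was 1.55. Mitochondrial mRNAs called higher numbered 13 without het library 1, 7 without het library 2, 11 without WT library 1 and 10 without WT library 2. Nuclear copies of mitochondrial DNA that lie together on chromosome 1 had nearly the levels of single mitochondrial genes in each library. Gm10925, picked after its values were seen, went from 304 and 353 CPM to 1414 and 2955 CPM (log2 2.73), close to mt-Atp6. Gm28437 went from 163 and 105 CPM to 689 and 1068 CPM (2.71), beside 163 and 107 CPM to 688 and 1060 CPM for mt-Co3. The copies can share reads with mt-Atp6 and the mt-Co genes, so the counts of both are uncertain. Calls of the copies are therefore not a separate rise.

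Cytosolic ribosomal protein mRNAs rose as a class. Of 82 members 25 were higher and 0 lower, which is 30.5% against 2.61% of all genes, and their median log2 change was 0.86 against 0.04. In 71 of the 82 both het libraries lay above both WT libraries, and in 0 did both lie below. Over all genes tested both het libraries lay above both WT libraries in 28.4% and below them in 24.9%. The subunits of the ribosome behaved alike in size, with a median of 0.87 over 33 small-subunit and 0.85 over 49 large-subunit genes.

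Rps27, of the small subunit, stood at 20.1 and 14.5 CPM in WT and at 63.5 and 70.9 CPM in het libraries (log2 1.95, SE 0.28, edgeR adjusted p = 0.00409). Rpl41, which encodes the smallest ribosomal protein, rose from 64.8 and 57.6 CPM to 204 and 193 CPM (log2 1.70). Rps28 rose from 9.9 and 8.96 CPM to 30.6 and 35.3 CPM (log2 1.80). These 3 were the members that stayed called without any 1 library. Of the list, 3 genes were called without het library 1, 6 without het library 2, 5 without WT library 1 and 26 without WT library 2, while the median stayed between 0.73 and 1.04. Ribosomal protein genes have many processed copies in the genome, and the sources used here do not say how reads with several matches were counted.

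Vertebrate ribosomal protein mRNAs typically begin with a C and a run of pyrimidines, the terminal oligopyrimidine (TOP) start that ties their translation to growth signals. Of the 25 members called higher 19 had a promoter in the table, and 3 of these (15.8%) had a C followed by at least 4 pyrimidines at the annotated start. Rpl41 and Rps28 were among those that did not. The 3 matching starts are shown as examples of the feature. They are read from RefSeq promoters on GRCm38.p6, with 10 bases on either side and the pyrimidine run from the annotated start in capitals.
Rps27, chr3:90213632-90213658, minus strand: cgctttcgctCCTTTCCggcggtgacg
Rpl38, chr11:114668570-114668597, plus strand: aagcctcgttCTTTCCCCgttctcttcg
Rps18, chr17:33955647-33955675, minus strand: cacttccgctCTCTCTTCCacaggaggcc
Rpl38 rose from 17.6 and 19.2 CPM to 52.5 and 49.1 CPM (log2 1.47), and Rps18 from 51 and 50.3 CPM to 107 and 115 CPM (log2 1.14). The same start was found in 14 of the 61 ribosomal protein genes with a promoter in the table (23.0%) and in 3.01% of all genes with one. Only 61 of 82 members were matched, so the share describes these and not the whole list. Annotated starts can also miss the true start by a few bases.

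Lists with related roles differed in their medians. Of 60 translation factors 1 was higher, or 1.67% against 2.61% of all genes, and the list's median was 0.16. It was Eef1g of the elongation factor eEF1 complex (36.4 and 42.9 CPM to 97.8 and 70.7 CPM, log2 1.09). Of 22 aminoacyl-tRNA synthetase genes 1 was higher (4.5%), and the median was 0.05. It was the tyrosyl enzyme Yars (1.95 and 2.69 CPM to 10.5 and 7.37 CPM, log2 1.97). Host genes of snoRNAs had a median of 0.85, close to that of the ribosomal protein genes. Both het libraries lay above both WT libraries in 13 of the 19 tested, against 28.4% of all genes. Snhg20 (2.80) and Snhg16 (3.23) were higher, and Snhg4 (-1.30) and Snhg11 (-1.80), both annotated as protein-coding, were lower. This is 10.5% in each direction, against 2.61% and 2.01% of all genes. Without het library 2 the median of the hosts was 0.53 and 0 were called.

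Nuclear genes for oxidative phosphorylation (OXPHOS) shifted in the same direction as the mitochondrial genes, but by less. Of 79 members 8 were higher and 0 lower, which is 10.1% against 2.61% of all genes, with a median of 0.72. The shift was spread over the complexes, with medians of 0.69 for 37 complex I genes, 0.68 for 14 genes of complexes II and III, 0.73 for 12 complex IV genes and 0.76 for 16 ATP synthase genes. Both het libraries lay above both WT libraries in 52 of 79 genes and below in 1, against 28.4% and 24.9% of all genes.

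Atp5e, the epsilon subunit of ATP synthase, stood at 76.5 and 82.2 CPM in WT and at 236 and 239 CPM in het libraries (log2 1.58, SE 0.30, edgeR adjusted p = 0.0137). Uqcr11 of complex III rose from 39.8 and 85.5 CPM to 223 and 139 CPM (log2 1.53). Cox7c of complex IV rose from 48.6 and 75.7 CPM to 160 and 144 CPM (log2 1.29). WT library 2 was the higher WT library in each, and the groups did not overlap. This library mattered: 29 members were called without it, and 0 without any 1 of the other 3 translatome libraries. The list's median was 0.40 without WT library 1 and 0.97 without WT library 2.

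Crls1 makes cardiolipin, the signature lipid of the inner mitochondrial membrane. It stood at 1.32 and 2.56 CPM in WT and at 24.1 and 24.9 CPM in het libraries (log2 3.71, SE 0.42, edgeR adjusted p = 0.00149). It was the only called gene of 11 in cardiolipin synthesis. Chchd10, of the cristae junctions, rose from 29.1 and 36 CPM to 106 and 68.9 CPM (log2 1.43). With Mtfr2 above, these were the called members of 46 genes for mitochondrial dynamics and cardiolipin, whose median was -0.12. Called higher were 4.35% of them and lower 2.17%, against 2.61% and 2.01% of all genes. Of 42 import and chaperone genes, the outer-membrane import subunits Tomm5 (1.89) and Tomm20 (0.97) were higher (4.76%) and 0 were lower. Mitochondrial ribosomal proteins had 3 of 78 higher (3.85% against 2.61% of all genes), 0 lower and a median of 0.35.

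**Figure D3:**
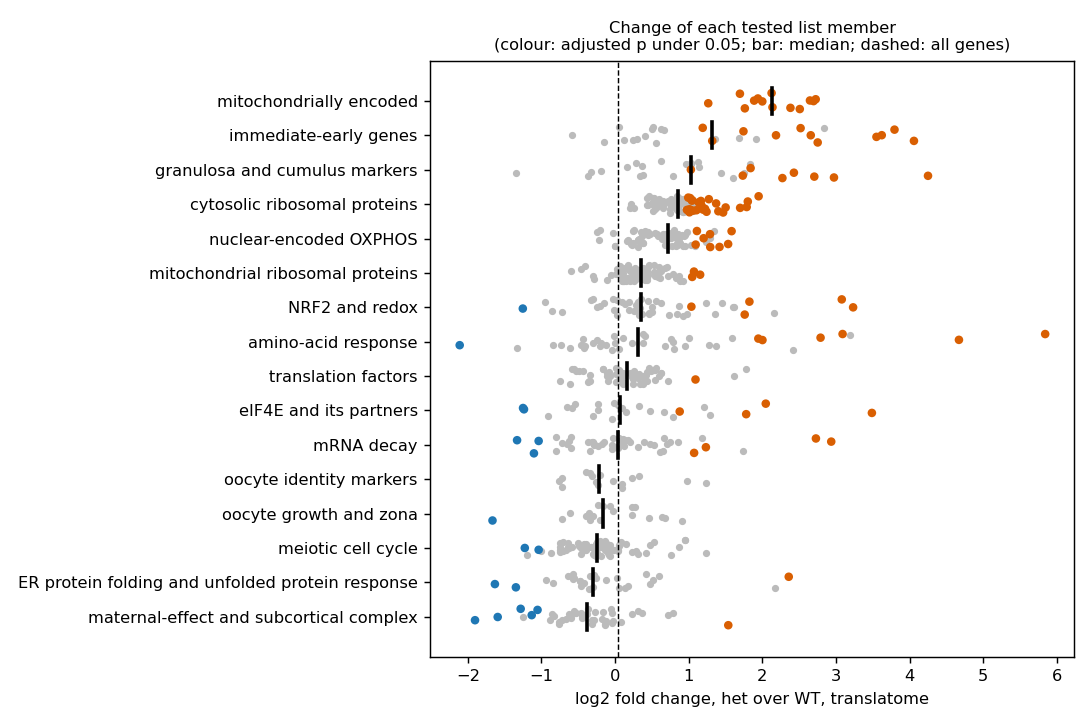
Log2 fold change of each tested member of 16 gene lists in the het translatome, with genes of adjusted p under 0.05 in orange (higher) or blue (lower), the median of each list as a black bar and the median of all genes, 0.04, as a dashed line. Medians run from 2.12 for mitochondrially encoded genes to -0.38 for maternal-effect genes.

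The mRNAs of these complexes are short, and the translatome change went with transcript length in general. Protein-coding genes of at least 10 CPM were divided into 5 bins by their longest annotated transcript. In the shortest bin, of 105 to 1843 bp, 110 of 1595 genes were higher (6.90%) and 30 lower (1.88%). The median log2 change there was 0.25. In the bin of 3717 to 5051 bp 21 were higher (1.32%) and 95 lower (5.96%), with a median of -0.22. The longest bin had a median of -0.19, and 37 genes higher (2.32%) and 40 lower (2.51%). Of all genes tested 2.61% were higher and 2.01% lower.

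An alternative chosen after the data were seen took out 7 lists. These were the mitochondrially encoded, ribosomal protein, nuclear OXPHOS, mitochondrial ribosomal, import and chaperone, translation factor and proteasome genes. This left 1380 genes in the shortest bin. Their median was 0.20, with 72 higher (5.22%) and 30 lower (2.17%). Each het library exceeded each WT library in the shortest bin, with median log2 ratios from 0.12 to 0.39, and het library 1 stood at 0.04 to het library 2. The WT libraries also differed by length. WT library 1 over WT library 2 ran from -0.16 in the shortest to 0.12 in the longest bin. Het library 1 over WT library 2 ran from 0.19 to -0.08, and het library 2 over WT library 2 from 0.12 to -0.15. Against WT library 1 the ranges were wider, from 0.39 to -0.21 for het library 1 and from 0.33 to -0.27 for het library 2. Het library 1 over het library 2 stood at 0.04 in the shortest and 0.07 in the longest bin. The length trend within WT was thus similar in size only to that of the het libraries over WT library 2. The genotype change in total mRNA followed length in another way. From the shortest to the longest bin the transcriptome medians were -0.08, -0.30, -0.21, -0.08 and 0.13. The part of transcript length in the changes of the short-mRNA lists was not tested. Medians over bins of GC content lay between -0.07 and -0.02 in the translatome.

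**Figure D4:**
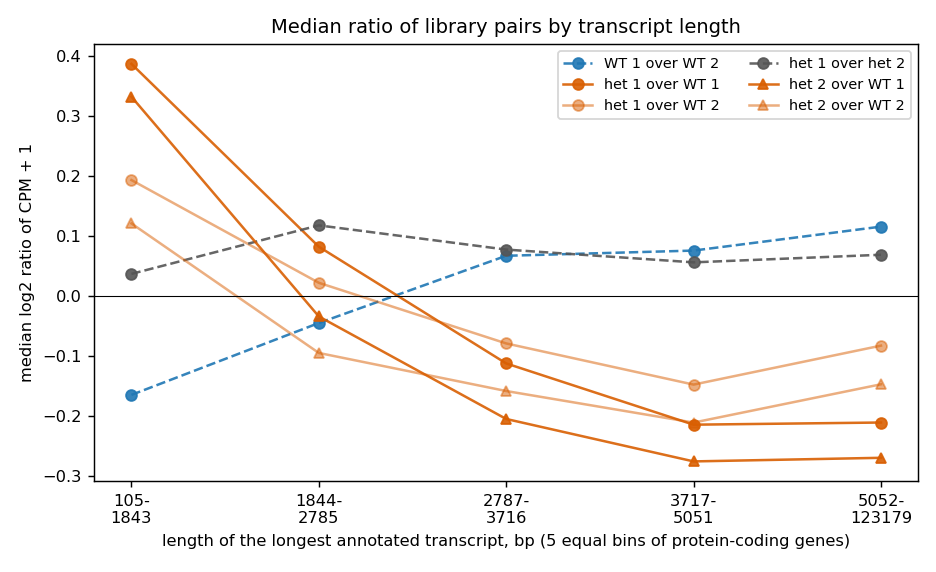
Median log2 ratio of CPM + 1 between pairs of translatome libraries in 5 equal bins of protein-coding genes by length of the longest transcript in bp, with het over WT pairs in orange, WT 1 over WT 2 in dashed blue and het 1 over het 2 in dashed grey. All 4 orange lines start above 0, at 0.12 to 0.39, and are below 0 from the third bin on. The dashed blue line also runs with length, from -0.16 in the shortest to 0.12 in the longest bin.

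The partners of 4E-T went in both directions. The cap-binding protein Eif4e itself stood at 285 and 368 CPM in WT and at 327 and 305 CPM in het libraries (log2 -0.05, edgeR adjusted p = 0.941). Eif4e2, a cap-binding homologue that joins repressor complexes, rose from 29.4 and 33.1 CPM to 56.8 and 57.8 CPM (log2 0.88, adjusted p = 0.0497). Eif4ebp1, the classical inhibitor that competes for the same surface of eIF4E, rose from 6.34 and 8.19 CPM to 21.5 and 28.2 CPM (log2 1.78).

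Among proteins of the repressor and storage complex, the Y-box mRNA-binding proteins moved apart. Ybx3 rose from 15.1 and 15.2 CPM to 162 and 178 CPM (log2 3.49, SE 0.45, adjusted p = 0.0026). Ybx1 fell from 75.5 and 67.3 CPM to 27.3 and 32.8 CPM (log2 -1.25), and the germ-cell member Ybx2 stood at 23.2 and 42 CPM against 95.6 and 54.9 CPM without passing (log2 1.21, adjusted p = 0.0727). Lsm14b, a direct partner of 4E-T, rose from 23.4 and 12.7 CPM to 77.7 and 72.4 CPM (log2 2.05). Cpeb1, which represses and later activates mRNAs through their cytoplasmic polyadenylation element, had 734 and 1034 CPM in WT and 674 and 454 CPM in het libraries without passing (log2 -0.65). The list of 24 includes Eif4enif1 itself, the mutated gene, which with Ybx1 makes up the members called lower. In all, 16.7% of the 24 genes were higher and 8.33% lower, against 2.61% and 2.01% of all genes. These were 4 higher and 2 lower genes, and the median of the list was 0.07. Of these only Ybx3 stayed called without any 1 library.

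Of 48 mRNA decay genes tested 4 were higher and 3 lower, which is 8.33% and 6.25% against 2.61% and 2.01% of all genes, with a median of 0.05. Btg3, of the family that recruits deadenylases, rose from 1.39 and 3.33 CPM to 14.4 and 20.3 CPM (log2 2.94) and stayed called without any 1 library. Tut4, which adds uridines to mRNA tails, rose from 1.63 and 2.69 CPM to 12.9 and 15.1 CPM (log2 2.73). The decapping-complex genes Lsm1 (1.07) and Lsm7 (1.23) were higher. The deadenylases Pan2 (-1.33) and Cnot8 (376 and 486 CPM to 183 and 219 CPM, log2 -1.10) and the poly(A) polymerase Tent2 (-1.04) were lower.

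Genes of the response to amino-acid shortage, driven in many cells by ATF4 and C/EBP factors, included some of the largest increases. Of 40 tested 6 were higher and 1 lower, 15% higher against 2.61% of all genes, with a median of 0.31. With a minimum mean of 10 CPM 21 members remained, 2 higher and 1 lower, with a median of -0.01. The list's median in the transcriptome was -0.08. Cebpb, a C/EBP transcription factor, stood at 1.15 and 0.32 CPM in WT and at 45 and 50.4 CPM in het libraries (log2 5.84, SE 0.74, edgeR adjusted p = 0.0026). Nupr1, a stress-induced chromatin protein, rose from 9.83 and 10.6 CPM to 97.1 and 76.1 CPM (log2 3.09).

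The neutral amino-acid transporter Slc38a2 rose from 4.52 and 3.65 CPM to 17.6 and 15.3 CPM (log2 2.00). Vldlr, a lipoprotein receptor, rose from 0.0721 and 0.128 CPM to 3.56 and 1.22 CPM (log2 4.67), Stc2, a secreted glycoprotein, by 2.79 and the serine-synthesis enzyme Psph by 1.95. The single member that fell was Slc6a9. Atf4 itself had 132 and 101 CPM in WT and 104 and 100 CPM in het libraries (log2 -0.19, adjusted p = 0.715). Asparagine synthetase, Asns, a standard target, stood at 3.46 and 5.37 CPM against 15.4 and 10.8 CPM (log2 1.59, adjusted p = 0.0534). Members called higher numbered 2 without het library 1 and 4, 4 and 7 without het library 2, WT library 1 and WT library 2.

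Genes of endoplasmic reticulum (ER) folding did not rise as a group. Of 29 tested 1 was higher and 2 lower, which is 3.45% and 6.90% against 2.61% and 2.01% of all genes, with a median of -0.30. Xbp1, a transcription factor of the unfolded protein response, rose from 6.7 and 9.08 CPM to 36.8 and 43.7 CPM (log2 2.36, adjusted p = 0.00836). The ER calcium-binding chaperone Calr fell from 298 and 537 CPM to 207 and 122 CPM (log2 -1.35), and the ubiquitin ligase Syvn1 from 67.8 and 42 CPM to 22.6 and 12.8 CPM (log2 -1.63). The main ER chaperone Hspa5 overlapped between groups, at 532 and 1388 CPM in WT, with 825 and 569 CPM in het libraries (log2 -0.46, adjusted p = 0.524).

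Antioxidant genes, many of them targets of the transcription factor NRF2, had 5 of 48 higher and 1 lower, with a median of 0.35. This is 10.4% and 2.08%, against 2.61% and 2.01% of all genes with a median of 0.04. Gclc, the catalytic subunit of glutathione synthesis, rose from 3.63 and 1.15 CPM to 21.4 and 20.9 CPM (log2 3.08, adjusted p = 0.00531). The microsomal glutathione transferase Mgst1 rose from 4.33 and 6.78 CPM to 13.2 and 24.1 CPM (log2 1.76), the sulfiredoxin Srxn1 from 0.216 and 0.192 CPM to 1.45 and 2.52 CPM (log2 3.23). The glutathione peroxidases Gpx7 (1.82) and Gpx1 (1.04) completed the increases. Txnrd1, a thioredoxin reductase and itself an NRF2 target, fell from 118 and 129 CPM to 59.4 and 44.1 CPM (log2 -1.25). Without het library 2 or WT library 1 a single member was higher, and without WT library 2 there were 10.

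Short motifs in the promoters of called members are shown as examples of the elements these pathways are known for. The antioxidant response element core searched was TGACNNNGC and the C/EBP-ATF core TGATGNAA, each on both strands, in the 250 bases before and 50 after RefSeq starts on GRCm38.p6. Capitals mark the match, which may read on the other strand.
Mgst1, chr6:138140461-138140489, plus strand: gcggggcttgGCACGGTCAggaggcgggg
Srxn1, chr2:152105542-152105570, plus strand: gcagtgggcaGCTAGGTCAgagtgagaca
Nupr1, chr7:126625563-126625590, minus strand: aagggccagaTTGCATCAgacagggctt
Vldlr, chr19:27216810-27216837, plus strand: gcagcaatagTTGCATCAgcgctcctag
All shares are of genes with a promoter, 331 of those called higher and 327 of those called lower. The C/EBP-ATF core was found for 10 of 35 amino-acid response genes (28.6%), 3.40% of tested genes and 4.51% of all genes. It was found for 5.44% of genes called higher and for 5.51% of those called lower. Of 6 amino-acid response genes called higher, 2 held this core and 4 the antioxidant core. The antioxidant core was found for 11 of 42 antioxidant genes (26.2%), 16.2% of tested genes and 14% of all genes. It was common in other sets too, with 28.6% of amino-acid response genes, 25% of snoRNA hosts and 22% of translation factors. The shares were 19.9% of genes called higher and 20.5% of those called lower. A match is a run of letters in the window and no evidence of binding.

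Immediate-early genes, which respond to signals and handling within minutes, had 11 of 27 tested members higher and 0 lower. This is 40.7% against 2.61% of all genes, and the median was 1.32. Ier3 rose from 0.769 and 1.6 CPM to 14.9 and 12.7 CPM (log2 3.62), and Ier5l from 3.92 and 0.832 CPM to 36.8 and 48 CPM (log2 4.06). The transcription factor Myc rose from 3.29 and 4.86 CPM to 32.5 and 21.7 CPM (log2 2.75), and Jund from 15.9 and 7.42 CPM to 49.2 and 85.9 CPM (log2 2.52). Fos, in contrast, had 23.9 and 94 CPM in WT and 32.9 and 106 CPM in het libraries, so that the groups overlapped (log2 0.24, adjusted p = 0.902). Between 4 and 6 members were called without het library 1, het library 2 or WT library 1.

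Markers of granulosa and cumulus cells, the somatic cells that enclose an oocyte in the follicle, moved with these genes. Their summed level was 658.9 and 966 CPM in WT and 1331 and 1796 CPM in het translatome libraries. Of 28 markers 8 were higher and 0 lower, the median was 1.03, and both het libraries lay above both WT libraries in 19. This is 28.6% called higher against 2.61% of all genes, and over all genes both het libraries lay above in 28.4%. The activin antagonist Fst rose from 4.73 and 9.4 CPM to 27.9 and 39.5 CPM (log2 2.27), the gap junction protein Gja1 from 24.9 and 46.6 CPM to 107 and 148 CPM (log2 1.84), and the anti-Müllerian hormone receptor Amhr2 by 1.73. The most abundant marker after Serpine2 was Inha, an inhibin subunit, at 90.1 and 266 CPM in WT and 454.5 and 741 CPM in het libraries, without passing (log2 1.75, adjusted p = 0.0748).

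Not all markers followed. Cyp19a1, the aromatase of granulosa cells, had 38.2 and 28.7 CPM against 28.9 and 24.7 CPM (log2 -0.32), and the receptor Fshr 2.88 and 3.13 CPM against 3.5 and 4.23 CPM (log2 0.36). Marker calls numbered 1 without het library 1, 0 without het library 2 or WT library 1 and 7 without WT library 2. Between 1 and 2 of the 28 markers were at 0 counts in each translatome library. Wnt4 and the keratins Krt8 and Krt18 (log2 2.97) are also expressed by ovarian somatic cells, Krt8 rising from 4.93 and 7.55 CPM to 42.1 and 26 CPM (log2 2.46). More somatic cells and more RNA per somatic cell cannot be told apart in such bulk samples. The part of somatic RNA in the increases above was not tested. Of blood, immune and endothelial markers 0 of 13 tested were called, where 4.61% of all genes were called. Their summed level was 125.6 and 131.7 CPM in WT and 147.1 and 119.3 CPM in het libraries. Of 9 theca, stroma and epithelium markers tested 1 was higher (Krt8) and 1 lower (Upk3b, log2 -2.25), 11.1% in each direction.

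Maternal-effect genes, whose products the embryo needs before its own genome is active, tended to lower levels. Of 43 tested 5 were lower and 1 higher, 11.6% lower against 2.01% of all genes, and the median was -0.38. In 21 both het libraries lay below both WT libraries, and in 3 both lay above, against 24.9% and 28.4% of all genes. Zbed3, of the subcortical maternal complex, was the most abundant gene that fell, from 4898 and 1682 CPM to 1048 and 1131 CPM (log2 -1.59, SE 0.41, edgeR adjusted p = 0.0456). Its WT libraries differed almost as much as the genotypes did, and the adjusted p without WT library 1 was 0.365.

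The NLR-family gene Nlrp9b fell from 420 and 444 CPM to 217 and 138 CPM (log2 -1.28) and Nlrp4e changed by -1.13. Tcl1b3, of an oocyte-expressed TCL1 cluster, fell from 435 and 332 CPM to 171 and 199 CPM (log2 -1.05), and the chromatin-associated Dppa4 from 16.8 and 23.2 CPM to 6.05 and 4.56 CPM (log2 -1.90). Dppa5a rose from 283 and 669 CPM to 1821 and 940 CPM (log2 1.54). Core members of the subcortical complex varied within genotypes and did not pass: Nlrp5 had 1972 and 5318 CPM in WT and 2718 and 1577 CPM in het libraries (log2 -0.76), and Khdc3 1336 and 3094 CPM against 4990 and 2324 CPM (log2 0.72). Calls for lower levels numbered 0 without either het library, 1 without WT library 1 and 3 without WT library 2.

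Of 19 tested genes for oocyte growth and the zona 1 was lower, or 5.26% against 2.01% of all genes. This was Kit, the receptor for the Kit ligand of granulosa cells, which fell from 168 and 275 CPM to 83.1 and 56.5 CPM (log2 -1.67, edgeR adjusted p = 0.015). Among 42 oocyte transcription factors and chromatin genes the imprint-protecting Zfp57 fell from 591 and 431 CPM to 145 and 203 CPM (log2 -1.56). The histone demethylase Kdm1a rose from 10.3 and 11.3 CPM to 36.4 and 35.6 CPM (log2 1.74), and Kdm5b by 1.29. The list thus had 4.76% higher and 2.38% lower, against 2.61% and 2.01% of all genes. Of 70 meiotic cell-cycle genes tested 2 were lower, the centriole kinase Plk4 (110 and 99.8 CPM to 37.5 and 52.2 CPM, log2 -1.23) and the checkpoint gene Mad1l1 (-1.04), with a median of -0.24. Both het libraries lay below both WT libraries in 31 of these 70 and above in 6, against 24.9% and 28.4% of all genes, while the called share of 2.86% was near the 2.01% of all genes called lower. Of the 16 oocyte markers 0 were called by edgeR, where 4.61% of all genes were called. The smallest edgeR adjusted p were 0.0783 for Figla (log2 1.24) and 0.104 for Dazl (log2 -0.72).

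Several other abundant mRNAs fell. Slc45a3, a sugar transporter, went from 2870 and 1788 CPM to 1063 and 788 CPM (log2 -1.33). Tbc1d14, a regulator of recycling endosomes and autophagy, went from 388 and 416 CPM to 130.5 and 129.8 CPM (log2 -1.63, SE 0.26, adjusted p = 0.00707). Cfl1, the actin-severing protein cofilin, went from 516 and 533 CPM to 293 and 217 CPM (log2 -1.04). As in every called gene, the groups did not overlap in these 3. The proteasome subunit Psmb7 (-1.08) was the called gene of 31 in its list, and Scap (-1.45), the escort of sterol-sensing transcription factors, fell in a list of 30 where Scd2 (1.29) rose. Of 35 lysosomal genes the protease Ctsl (26 and 51 CPM to 162 and 204 CPM, log2 2.26) and the tetraspanin Cd63 (2.20) were higher and the transcription factor Tfe3 (-1.51) was lower. Glycolysis had 3 of 33 higher, namely Hk2 (2.13), Gapdh (1.44) and Aldoa (1.14), the first being the hexokinase that starts the pathway. Of 41 actin, tubulin and chaperonin genes Tmsb10 (1.28) rose beside the fall of Cfl1, and of 17 histone genes H2afz (1.33) rose. Among families taken by symbol, zinc finger proteins had 5 of 367 higher and 14 lower, solute carriers 8 of 261 higher and 10 lower, and cytochrome P450 genes 0 of 40 higher and 2 lower. The shares of zinc finger genes (1.36% and 3.81%), solute carriers (3.07% and 3.83%) and cytochrome P450 genes (0% and 5%) stand beside 2.61% and 2.01% of all genes. Glycolysis had 9.09% higher and lysosomal genes 5.71% higher and 2.86% lower. Sterol synthesis genes had 3.33% and actin, tubulin and chaperonin genes 2.44% in each direction. Histones had 5.88% higher and the proteasome 3.23% lower.

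Both fractions came from the same oocyte samples and were set side by side gene by gene. In one group of genes the changes were of similar size in both. Rgcc changed by 3.79 in the translatome and 4.17 in the transcriptome, Nupr1 by 3.09 and 3.73, Xbp1 by 2.36 and 2.75, Btg3 by 2.94 and 3.06 and Cyp2c29 by -2.76 and -2.68. In another the translatome value was the larger. Srsf9 changed by 3.37 and 0.88, Crls1 by 3.71 and 0.98, Ybx3 by 3.49 and 0.80, Ctbp2 by -2.14 and -0.39, Slc6a9 by -2.11 and -0.12, Tbc1d14 by -1.63 and -0.10 and Kit by -1.67 and -0.13. For Zbed3 the values were -1.59 and 0.02, and for Calr -1.35 and 0.49.

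The difference between the changes was tested as an interaction, which called 3 of 22409 genes, or 0.0134%. They were Mtfr2 (difference -2.65), the Myc-family gene Mycl (-3.77) and the predicted gene Gm21887 (3.52), each with an adjusted p of 0.0254. No gene was called with the replicate block, without either het translatome or either het transcriptome library, or without WT transcriptome library 1. The count was 10 without WT translatome library 1. Srsf9 (difference 2.49, adjusted p = 0.0629), Ctbp2 (-1.75, adjusted p = 0.231) and Slc6a9 (-1.99, adjusted p = 0.308) did not pass. By list, the medians in the translatome and the transcriptome were 2.12 and 1.29 for mitochondrially encoded genes, 0.86 and 0.48 for ribosomal proteins and 0.72 and 0.24 for nuclear OXPHOS genes. They were 1.32 and 1.20 for immediate-early genes, 1.03 and 1.53 for granulosa markers and -0.38 and -0.28 for maternal-effect genes.

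**Figure D5:**
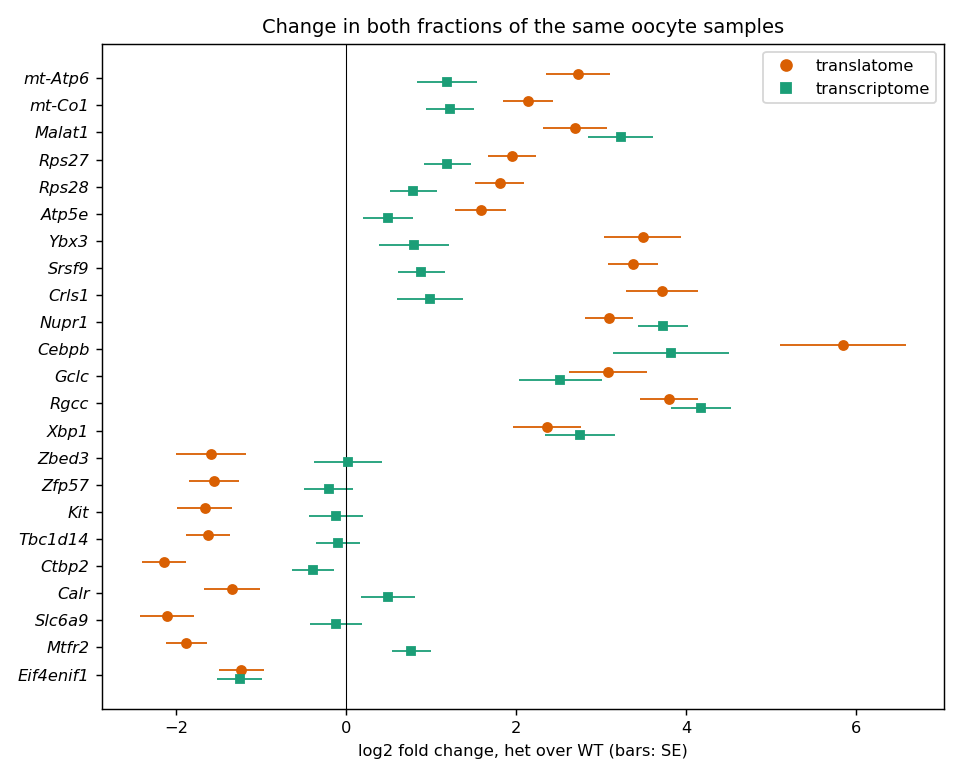
Log2 fold change, het over WT, with its SE, of 23 genes in the translatome (orange circles) and the transcriptome (green squares) of the same oocyte samples. Points of Rgcc (3.79 and 4.17) and Nupr1 (3.09 and 3.73) lie close together, whereas Slc6a9 (-2.11 and -0.12) and Mtfr2 (-1.88 and 0.77) are apart.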

How the data were processed

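RNA of GV oocytes was read as total mRNA (transcriptome) and as RiboLace-captured ribosome-bound mRNA (translatome), per the labels' protocols. The authors deposited raw read counts per gene. Per the submitters' processing notes, reads were trimmed with Trim Galore 0.6.4 and the tools named include HISAT2 2.1.0 and, for counting, featureCounts 1.6.5, on mm10. The sources used here do not state strand or multimapping settings, and no molecular identifiers are named, so counting intervals cover counting error only. Of 56196 genes, 54587 IDs matched the reference annotation with their version, and 27 of 28 symbols turned into dates were restored.

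All 8 GV libraries were fitted in 1 model of 4 groups with edgeR 4.0.16 (filterByExpr, TMM scaling, quasi-likelihood test, Benjamini-Hochberg adjustment over 22409 genes, threshold 0.05) in R 4.3.3. The scripts were tested on simulated data. The labels do not tie replicates to different animals or cultures. The p-values therefore reflect only how far these samples differ, possibly for technical reasons. Alternatives were RLE scaling, no filter, a minimum mean of 10 CPM, DESeq2 1.42.0, a replicate block, translatome libraries only, and each library left out. The length analyses without list genes and by library pair were added after seeing the data.

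Gene lists were chosen with earlier results of these data known, and list members are described by counts and medians. Genes were named as the 8 largest changes of CPM and the 8 smallest p in each direction, up to 4 called members of each list (or 2 uncalled ones with the smallest p) and up to 4 genes called for the interaction. Further list members are given as values, and other genes are said to be picked after their values were seen. Promoters came from RefSeq on GRCm38.p6. The embryo data were not used here. Pairing was judged by the correlation of deviations from group means over 9075 genes: 0.262 and 0.0584 between fractions of the het and WT specimens, whose pairing the labels give, and -0.338 between equal replicate numbers of the genotypes.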

Additional observations from a re-analysis of the deposited data

Results flagged for a closer look

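The change between genotypes differed between the fractions, by the interaction test of edgeR, in 3 genes. These calls were lost, with 0 genes called, under the replicate block, without any 1 of the 4 het libraries and without WT transcriptome library 1. Mtfr2 changed by -1.88 in the translatome and by 0.77 in the transcriptome, a difference of -2.65 on the log2 scale (adjusted p = 0.0254). Mycl changed by -0.59 in the translatome, with 10.7 and 10.7 CPM in WT and 6.11 and 8.14 CPM in het libraries, and by 3.18 in the transcriptome, a difference of -3.77 (adjusted p = 0.0254). Gm21887 rose from 11.4 and 9.6 CPM to 62.1 and 63.7 CPM in the translatome (log2 2.58) and changed by -0.94 in the transcriptome, a difference of 3.52 (adjusted p = 0.0254).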

How the results depend on the processing

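The 1034 translatome calls became 2113 without a filter (1369 higher, 744 lower), 1908 with DESeq2 (1066 higher, 842 lower) and between 154 and 1329 with 1 library left out (128 to 849 higher, 26 to 532 lower). The 572 transcriptome calls became 1554 without a filter, 225 with the stricter filter, 1428 with DESeq2 and 69 to 909 with 1 library left out. The 3 interaction calls became 108 without a filter, 1 with the stricter filter, 119 with DESeq2 and 0 to 10 with 1 library left out. Equal replicate numbers of the genotypes share only a number: with the number as a replicate block 670 translatome genes (279 lower) and 0 interaction genes were called. With the specimen as a block, which pairs both fractions, 7 interaction genes were called. The log2 change of Lyz2, -4.06 without passing, lay between -5.23 and 0.0926 with 1 library left out and changed sign without WT translatome replicate 1 (adjusted p = 0.992). The causes were not tested. Depth limits genes such as Wnt4, with 3 counts in the WT translatomes together.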

Other observations

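The genes of this section were picked after their values were seen. Nuclear-retained noncoding RNA was present among the ribosome-bound reads. Malat1 stood at 251 and 343.5 CPM in WT and at 1879 and 1962 CPM in het translatomes (log2 2.69), and changed by 3.23 in the transcriptome. Malat1 overlaps another annotated transcript, so its counts are uncertain. Rn7sk, a nuclear regulator of transcription elongation, rose from 3.89 and 0.256 CPM to 8.86 and 40.1 CPM (log2 3.42), with het library 2 far above het library 1. The noncoding RNAs Neat1 (log2 1.76, edgeR adjusted p = 0.0729) and Rpph1 (log2 0.67, edgeR adjusted p = 0.787) were looked at too and did not pass. Rpph1 lay under 1 CPM in all translatome libraries. Alyref, an mRNA export factor, rose from 10.1 and 8.06 CPM to 108 and 65.6 CPM (log2 3.25).

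The growth factor Igf1 rose from 2.86 and 2.69 CPM to 14.4 and 13.2 CPM (log2 2.31) and the chemokine Ccl2 from 3.05 and 4.41 CPM to 17.8 and 17.6 CPM (log2 2.26). The metallothionein Mt1 rose from 3.05 and 5.95 CPM to 18 and 33.6 CPM (log2 2.55). The X-linked neighbours Bex1, Bex3, Bex4, Tceal7, Tceal8 and Tceal9 rose by 1.45 to 2.65 on the log2 scale.

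Within 4 Mb of Eif4enif1 on chromosome 11, 3 of 99 tested genes were higher and 8 lower. This is 8.08% lower, against 2.04% of 1422 genes on the rest of the chromosome. Pes1, a ribosome biogenesis factor, fell from 63.4 and 44.1 CPM to 17.3 and 21.8 CPM (log2 -1.46), and the window also holds Xbp1. The window was set after seeing the values, and no test was made.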
